A study of Mus musculus with 830 samples.

Results

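Slc38a5, Slc38a4, Slc7a2 and Slc7a8 encode amino acid carriers of the plasma membrane, and their 4 rows among the 26313 gene rows of a single-cell count table are described here in sorted endoderm and gut cells of mouse embryos (cross C57BL/6XC3H). The genes were chosen by name with earlier results of these data known, and their levels by reporter, by stage and by glucagon (Gcg) content entered that choice, so the values of these 4 genes are given as a description, with no test. In all, 830 cells were profiled by Smart-seq3xpress (RNA-seq of full-length transcripts from sorted cells) and each deposited sample is 1 cell. Ngn3-Cre; Ai6 embryos (called Ngn3Cre below, 333 cells) carry a Cre recombinase driven by the gene for Neurogenin 3 (Neurog3) and a reporter that Cre switches on for good, so cells and their descendants stay marked. Ngn3-GFP/+ embryos (HZ, 326 cells) carry GFP on 1 Neurog3 allele and Ngn3-GFP/GFP embryos (HM, 171 cells) carry it on both. Stages run from 15 to 27 somites. The cells were stained for EpCAM, an epithelial surface protein, before sorting, and the sources used here do not say whether reporter fluorescence was part of the gate.

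Members of the SLC38 family move small neutral amino acids into cells together with sodium. Slc38a5 (also called SNAT5) carries glutamine, asparagine, histidine, serine and glycine, and is known in the pancreas as a carrier that alpha cells raise when glucagon signalling in the liver is blocked. Slc38a4 (SNAT4) carries alanine and other neutral amino acids, is known from liver and placenta, and is imprinted in the placenta. Slc7a2 (CAT2) carries the cationic amino acids arginine, lysine and ornithine. Slc7a8 (LAT2) exchanges neutral amino acids across the membrane and works only as a pair with the heavy chain Slc3a2. Amino acids stimulate glucagon secretion, and glucagon in turn drives their use in the liver.

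In GRCm38 with the GENCODE vM21 annotation, Slc38a5 lies on chromosome X from 8271133 to 8280179 (plus strand), Slc38a4 on chromosome 15 from 96994820 to 97055956 (minus strand), Slc7a2 on chromosome 8 from 40862396 to 40922308 (plus strand) and Slc7a8 on chromosome 14 from 54722209 to 54781946 (minus strand). Slc7a2 overlaps Gm26584, a long non-coding RNA on the opposite strand, and the use of strand in counting is not given, so reads of these genes cannot be told apart. Slc38a5 had the largest fitted difference between the GFP genotypes of the 4. The bases just before a RefSeq start of Slc38a5 are therefore shown beside those of Slc38a4, whose fitted difference had the opposite sign. Both stretches are the 120 bases before a RefSeq start (GRCm38.p6), 5′ to 3′ on the gene's strand, chrX:8271261-8271380 for Slc38a5 and chr15:97055957-97056076 for the outermost start of Slc38a4. Their positions are unlike. The Slc38a5 stretch lies inside the gene span given above, downstream of its first annotated base and in no annotated exon of the gene. That of Slc38a4 lies just outside its gene span. Capitals mark E-boxes (CANNTG, a motif that reads the same on both strands), the kind of site that Neurog3 and other basic helix-loop-helix factors bind.
Slc38a5: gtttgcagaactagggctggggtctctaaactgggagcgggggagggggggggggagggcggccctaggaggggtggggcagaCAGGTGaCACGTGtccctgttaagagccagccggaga
Slc38a4: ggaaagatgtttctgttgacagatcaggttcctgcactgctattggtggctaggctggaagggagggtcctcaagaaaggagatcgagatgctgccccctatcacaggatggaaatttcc

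The Slc38a5 stretch held 2 E-boxes, CAGGTG and CACGTG, which begin 37 and 30 bases before this RefSeq start. The Slc38a4 stretch held none. Among the 32851 promoter entries of the same table, 40.2% had an E-box in the same 120 bases and 10.6% had 2 or more, so such matches are common. RefSeq lists further starts of Slc38a4, with 1 and 2 matches, and a start of Slc7a8, with 1 match. A match is a stretch of letters and no measurement of binding.

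Since no embryo is named, all cells sharing a genotype and a stage were added up into 1 pool. The 11 pools with at least 10 cells held 8299225 to 70763553 reads, and median depth was 626967 reads per cell in HM, 378157 in HZ and 465918 in Ngn3Cre. How many embryos contributed to a pool is not stated. Neurog3, the targeted gene, served as a check of the labels. It ran from 6.18 to 11.1 CPM in the 4 HM pools and from 79.4 to 132 CPM in the 4 HZ pools, without overlap (CPM is the read count relative to library size, here scaled by TMM). The fitted log2 difference was -3.69 ± 0.44 (SE), with an adjusted p of 0.00336 in edgeR. Of 164 clustered HM cells 2.44% fell into clusters with endocrine markers, beside 52.6% of 325 HZ cells and 79.4% of 320 Ngn3Cre cells. In pools, fewer cells of a type and less RNA per cell cannot be told apart, and the part of these shares in the pool values below was not tested beyond the values given by cluster.

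Slc38a5 was by far the most abundant of the 4. Per length, on the authors' TPM scale averaged over the cells of a pool, it reached 4131 ± 2511 TPM in HZ (SD, n = 4 pools), beside 9.61 ± 2.21 TPM for Slc38a4, 7.08 ± 8.32 TPM for Slc7a2 and 2.53 ± 1.67 TPM for Slc7a8. In HM the distances were smaller. Slc38a5 stood at 94.3 ± 51.8 TPM (SD, n = 4 pools) and Slc38a4 at 17.2 ± 2.46 TPM, above Slc7a8 at 3.83 ± 3.41 TPM and Slc7a2 at 0.884 ± 0.731 TPM. In both genotypes the larger SD of Slc7a2 and Slc7a8 exceeded the distance between their means, so the order of these means is not resolved. The SD spans pools of different stages. In HZ, on read counts not set per length, Slc7a2 was below Slc7a8 at 18 somites (0.0801 and 12.3 CPM). At 27 somites it was above Slc7a8 (75.4 and 0.438 CPM).

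Slc38a5 was low in every HM pool and high in every Ngn3Cre pool. In HM its level was 57.2 CPM at 15 somites, 21.7 CPM at 18, 21.1 CPM at 21 and 128 CPM at 24 somites (CPM without further scaling). In HZ it was 757 CPM at 18 somites, 3555 CPM at 21, 5438 CPM at 24 and 5867 CPM at 27 somites. In Ngn3Cre it was 10480.0 CPM at 21 somites, 9713 CPM at 24 and 9212 CPM at 27 somites. Among these 11 pools no genotype overlapped with another, and the HZ pools were higher at each later stage while the Ngn3Cre pools lay within a narrow band. The pools of under 10 cells, which entered no fit, stood at 288 CPM (HM, 27 somites, 4 cells), 394 CPM (HZ, 15 somites, 5 cells) and 898 CPM (Ngn3Cre, 18 somites, 3 cells), and the last lies within the HZ range. The share of cells at 1000 CPM or more was 21.3%, 58.4%, 68.2% and 50.0% in HZ at 18, 21, 24 and 27 somites, and 90.6%, 74.8% and 78.3% in Ngn3Cre at 21, 24 and 27.

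At the shared stages Slc38a5 was 34.9-fold lower in HM than in HZ at 18 somites, 168-fold lower at 21 and 42.6-fold lower at 24. Ngn3Cre exceeded HZ 2.95-fold at 21 somites, 1.79-fold at 24 and 1.57-fold at 27. Fitted over the pools with stage as a factor, the log2 difference was -5.91 ± 0.52 (SE) between HM and HZ and 1.19 ± 0.40 between Ngn3Cre and HZ. Both differences use the same HZ pools, and the HM pool of 15 somites has no partner at its stage and carries no weight in them. The value for Ngn3Cre was 0.59 without the Ngn3Cre pool of 21 somites and 2.13 when log2 values were averaged over cells.

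**Figure D1:**
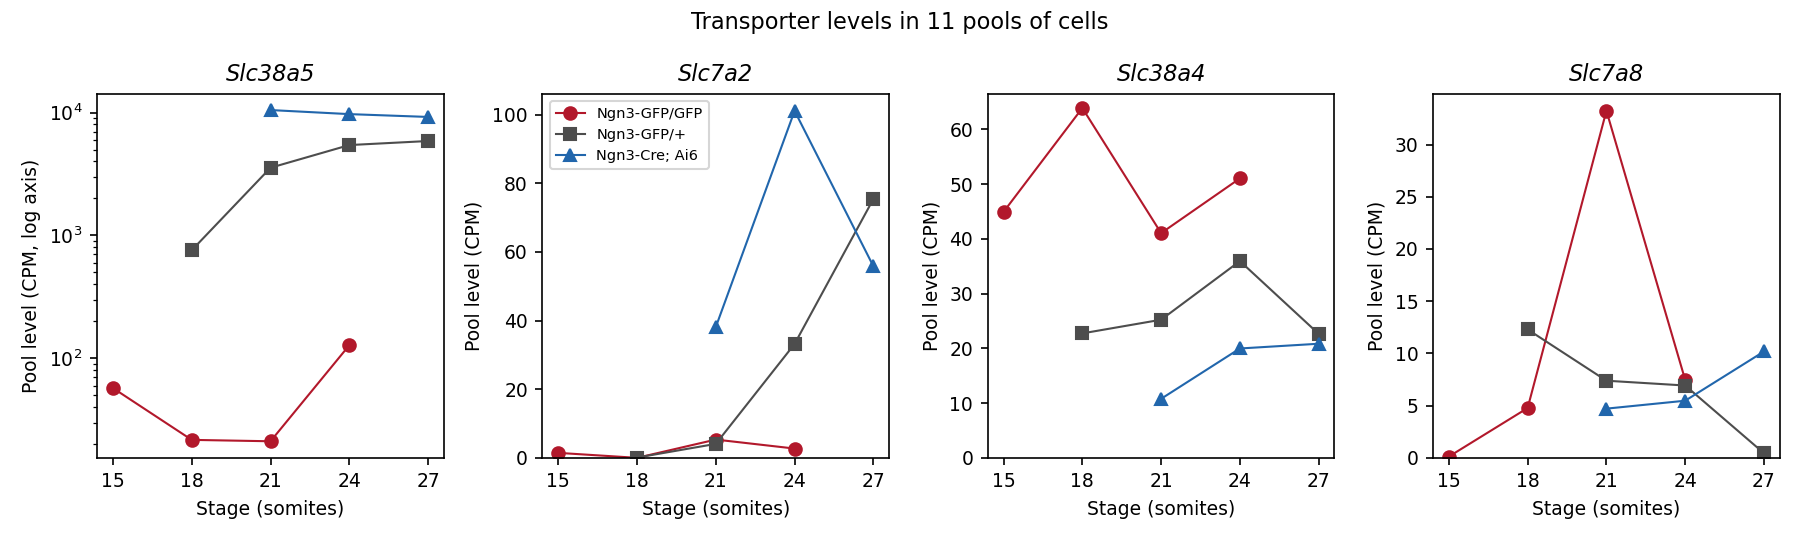
Level of each transporter (CPM; log axis for Slc38a5, linear axes for the others) against stage in somites, 1 point per pool of at least 10 cells, for Ngn3-GFP/GFP, Ngn3-GFP/+ and Ngn3-Cre; Ai6. The Slc38a5 lines lie apart at every stage, Slc7a2 reaches 75.4 CPM in HZ at 27 somites, Slc38a4 is highest in HM among these pools, and the Slc7a8 peak is the HM pool of 21 somites at 33.2 CPM.

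In HM at 24 somites few cells carried most Slc38a5 reads. There the 10% of cells with the most reads of it held 77.5% of them, and the median cell stood at 27.6 CPM. The highest HM cell had 6147 CPM, together with 11245 CPM of Ghrl (ghrelin) and 10.8 CPM of Gcg, and fell into an endocrine-like cluster. Without the 2 endocrine-like cells of that pool, which held 51.4% of its Slc38a5 reads, the pool level was 62.8 CPM. The next HM cells had 1179 CPM, in a shallow cell of 11873 reads, and 1104 CPM. In HZ at 24 somites the median cell stood at 6286 CPM.

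Slc7a2 was the carrier with the steepest course over stages in HZ. It had 0.0801 CPM at 18 somites (2 reads), 4.06 CPM at 21, 33.2 CPM at 24 and 75.4 CPM at 27 somites. In Ngn3Cre it had 38.1 CPM at 21 somites, 101 CPM at 24 and 55.8 CPM at 27. In HM it had 1.45 CPM at 15 somites, no read at 18 (a count of 0 that allows up to 0.260 CPM), 5.32 CPM at 21 and 2.70 CPM at 24. At 18 somites both GFP genotypes were at or under 3 reads, at 21 somites HM was 1.31-fold higher than HZ, and at 24 somites HM was 12.3-fold lower. Among these 11 pools every Ngn3Cre pool lay above every HM pool, while the HZ pools overlapped with both. Of the pools of under 10 cells, HM at 27 somites had 2.27 CPM (4 reads), and HZ at 15 and Ngn3Cre at 18 somites had no read.

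At 21 somites Slc7a2 was 9.38-fold higher in Ngn3Cre than in HZ, at 24 somites 3.05-fold higher, and at 27 somites 1.35-fold lower. The fitted log2 difference was -2.08 ± 0.97 (SE) between HM and HZ and 1.28 ± 0.76 between Ngn3Cre and HZ, and the slope was 0.47 ± 0.18 (SE) log2 units per somite. In those fits the HM pool of 18 somites enters with no read. Leaving out single pools took the HM difference from -3.71 (without HM at 21 somites) to -0.80 (without HM at 24 somites), and the Ngn3Cre difference from 0.38 (without HZ at 21 somites) to 2.11 (without HZ or Ngn3Cre at 27 somites). Counted in cells below 100 CPM of Gcg alone, an alternative chosen after the data were seen, the HM difference of Slc7a2 was -0.71, while that of Slc38a5 was -5.50.

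Among the 11 pools Slc38a4 was highest in HM. There it had 44.9 CPM at 15 somites, 63.9 CPM at 18, 41.1 CPM at 21 and 51.1 CPM at 24. In HZ it had 22.7 CPM at 18 somites, 25.2 CPM at 21, 36.0 CPM at 24 and 22.6 CPM at 27. In Ngn3Cre it had 10.8 CPM at 21 somites, 20.0 CPM at 24 and 20.8 CPM at 27. Among these 11 pools every HM pool lay above every HZ pool and every HZ pool above every Ngn3Cre pool, though the pools nearest to each other, 22.6 CPM in HZ and 20.8 CPM in Ngn3Cre at 27 somites, differed by less than the spread within either genotype. The pools of under 10 cells broke this order: HZ at 15 somites (5 cells) had 86.8 CPM, above every HM pool. HM at 27 somites (4 cells) had 45.3 CPM and Ngn3Cre at 18 somites (3 cells) had no read.

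The fitted log2 difference of Slc38a4 was 0.99 ± 0.28 (SE) between HM and HZ and -0.67 ± 0.29 between Ngn3Cre and HZ. On the authors' TPM the Ngn3Cre mean was close to that of HZ, at 9.34 ± 2.04 TPM (SD, n = 3 pools) beside 9.61 ± 2.21 TPM in HZ (SD, n = 4 pools). TPM averages the cells of a pool with equal weight, while the pool CPM weights them by depth. In HM at 18 somites 94.7% of the Slc38a4 reads came from the 10% of cells with the most.

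Slc7a8 was low in all genotypes. In HM it had 0.120 CPM at 15 somites, 4.77 CPM at 18, 33.2 CPM at 21 and 7.45 CPM at 24. In HZ it had 12.3 CPM at 18 somites, 7.38 CPM at 21, 6.92 CPM at 24 and 0.438 CPM at 27, and in Ngn3Cre 4.71, 5.47 and 10.2 CPM at 21, 24 and 27 somites. The genotypes overlapped, and the fitted log2 differences of 0.96 ± 1.02 (SE) for HM and 0.48 ± 1.24 for Ngn3Cre against HZ were within their errors. The high HM pool of 21 somites rested on 8 hepatic-like cells, which held 99.7% of its Slc7a8 reads, and without them the pool stood at 0.151 CPM. Left out of the fit, that pool took the HM difference to -0.25.

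Clusters were made without the 4 transporters, from cells with at least 2000 detected genes (164 in HM, 325 in HZ and 320 in Ngn3Cre), and named by markers. They give levels as a description, since the other genes of the same cells formed the clusters. At a Leiden resolution of 1 Slc38a5 was highest in the 4 endocrine-like clusters. It stood at 6435 CPM in the cluster with Neurog3 among its 10 leading genes (the Neurog3 cluster below, 155 cells), 12102 CPM in that led by Fev and Pax6 (83 cells), 11578 CPM in that led by Ghrl (87 cells) and 14786 CPM in that led by Gcg (104 cells). Over pools with at least 10 cells of the cluster, cells of the Neurog3 cluster ranged from 2907 to 8795 CPM (n = 6 pools) and the Gcg-led cells from 10604 to 16701 CPM (n = 4 pools), with no overlap between these clusters. The Fev-led, Ghrl-led and Gcg-led ranges overlapped. At a resolution of 2 high levels were not limited to clusters named endocrine-like: an unnamed cluster of 13 cells had 5886 CPM and a pancreatic progenitor-like cluster of 20 cells had 2099 CPM.

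Outside the endocrine-like clusters the level of Slc38a5 was 534 CPM in mesenchyme-like cells, 224 CPM in an unnamed cluster of 19 cells, 210 and 103 CPM in the pancreatic progenitor-like clusters, 75.1 CPM in neural or neural crest-like cells, 39.5 CPM in hepatic-like cells and 27.0 CPM in an unnamed cluster of 95 cells. The order by median differed: the median mesenchyme-like cell had 51.7 CPM of Slc38a5, beside 89.6 CPM in neural or neural crest-like cells and 209 CPM in the unnamed cluster of 19 cells. The mesenchyme-like cluster (55 cells) had T and Hoxa10 beside Col1a1 and Col3a1 among its 10 leading genes, so its cells may be mixed. At a resolution of 2 a mesenchyme-like cluster of 18 cells had 834 CPM of Slc38a5. An intestine-like cluster of 35 cells, led by T and Hoxa10, had 220 CPM there. Single reads of Slc38a5 were found in most cells of all types: 80.0% of the 20 hepatic-like cells had a Slc38a5 read, at a median level of 4.56 CPM and a median depth of 1162435 reads, and 100% of the Gcg-led cells had one at a median depth of 488996 reads. In cells outside the endocrine-like clusters Slc38a5 stood at 44.0 CPM in HM, 175 CPM in HZ and 364 CPM in Ngn3Cre, with medians over cells of 23.8, 52.1 and 117 CPM. Inside them it stood at 3698 CPM in HM, 8491 CPM in HZ and 12291 CPM in Ngn3Cre. The HM value comes from 4 cells, which ran from 449 to 6147 CPM. Of the endocrine-like cells in HZ, 95 of 171 were in the Neurog3 cluster, while in Ngn3Cre 85 of 254 were in the Gcg-led cluster, its largest share.

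Slc7a2 was highest in the Gcg-led cluster. It stood at 208 CPM in the Gcg-led cells, where 92.3% had a read (95% exact interval 85.4% to 96.6%), at 34.3 CPM in the Ghrl-led, 21.3 CPM in the Fev-led and 1.90 CPM in the Neurog3 cluster. By pool the Gcg-led cells had 139 to 241 CPM (n = 4 pools), above the highest pool of every other cluster, 69.5 CPM in the Ghrl-led cells. In the Gcg-led cluster HZ (237 CPM, 18 cells) and Ngn3Cre (203 CPM, 85 cells) were close. The single HM cell there had no Slc7a2 read, but it was shallow, with 25103 reads beside a cluster median of 488996. Slc38a4 stood at 76.4 CPM in mesenchyme-like cells, 65.5 and 41.6 CPM in the pancreatic progenitor-like clusters and 55.9 CPM in the unnamed cluster of 95 cells. It was at 17.1 CPM in the Ghrl-led cells, 6.23 CPM in the Neurog3 cluster, 3.88 CPM in the Fev-led, 3.76 CPM in the Gcg-led and 3.20 CPM in the hepatic-like cells. Slc7a8 was highest in the hepatic-like cells, at 75.1 CPM with a read in 90.0% of cells (68.3% to 98.8%), and stood at 6.09 to 10.7 CPM in the endocrine-like clusters. At a resolution of 2 Slc38a4 stood at 110 CPM in the mesenchyme-like cluster of 18 cells and at 31.4 CPM in the intestine-like cluster of 35 cells.

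**Figure D2:**
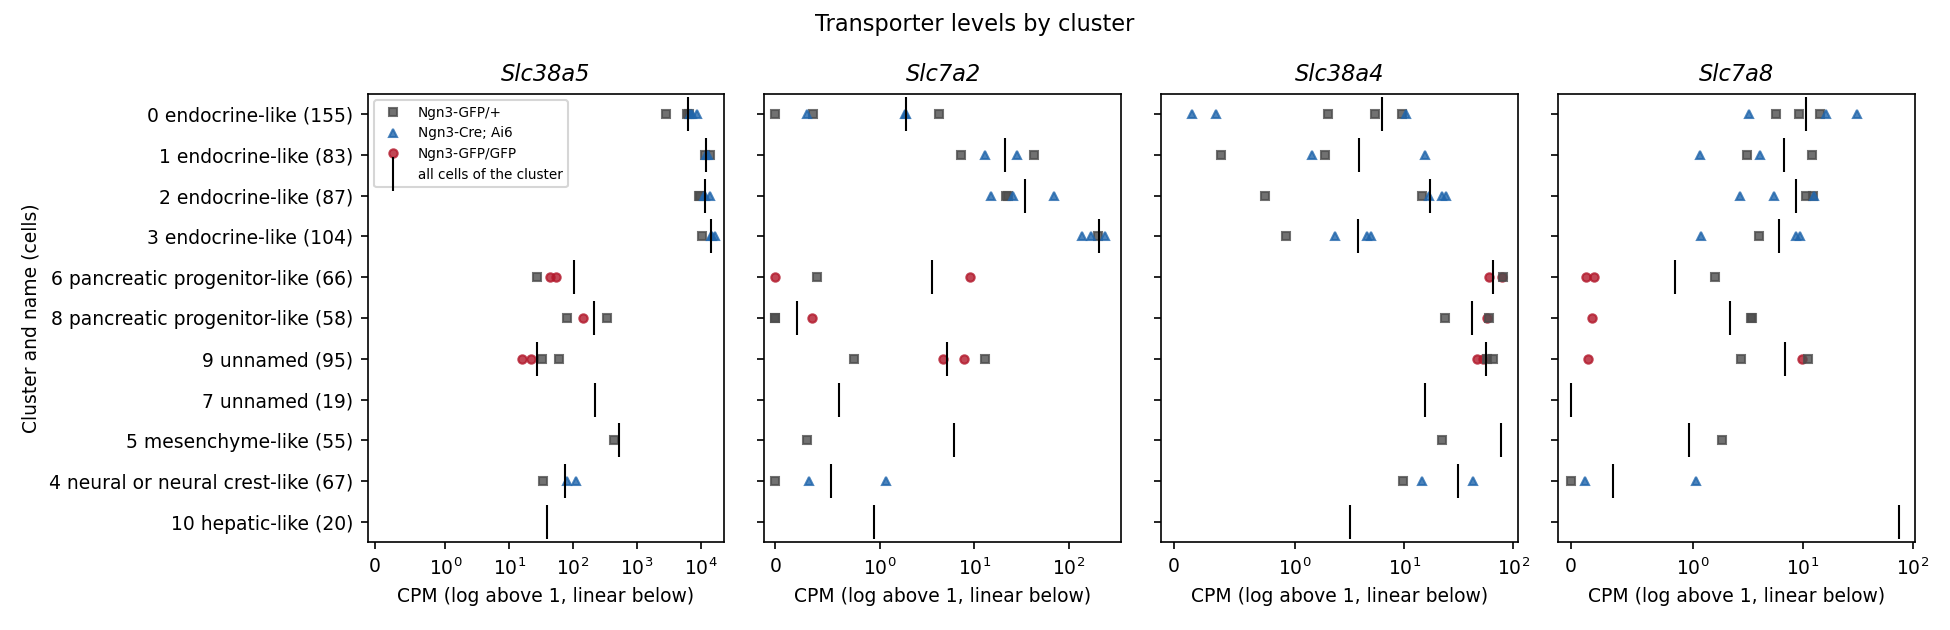
Level of each transporter (CPM; axis linear up to 1 and logarithmic above) in 11 clusters, listed with their names and numbers of cells. Points are pools with at least 10 cells of the cluster, by genotype, and the vertical ticks are all cells of the cluster; Slc38a5 is at 6435 CPM or more in the endocrine-like clusters taken whole, Slc7a2 peaks at 208 CPM in cluster 3, and Slc7a8 at 75.1 CPM in cluster 10.

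To relate the transporters to Gcg cell by cell, each cell was thinned to 100000 reads, where 1 read is 10 CPM. This left 713 cells and dropped 117 shallower ones. Cells with Gcg at 1000 CPM or more (122 cells) had a median of 13325 CPM of Slc38a5, and 121 of the 122 reached 1000 CPM. Medians were lower in the other classes, with 35.0 CPM in 236 cells with no Gcg read, 2820 CPM in 245 cells below 100 CPM and 4660 CPM in 110 cells between 100 and 1000 CPM. Many cells had much Slc38a5 and little Gcg: of 390 cells with Slc38a5 at 1000 CPM or more, 49.0% had Gcg at 100 CPM or more and 14.9% had no Gcg read.

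The cells without a Gcg read differed by genotype. Their median Slc38a5 was 10590.0 CPM in Ngn3Cre (26 cells), 50.0 CPM in HZ (109 cells) and 10.0 CPM in HM (101 cells). Above 1000 CPM of Gcg, HZ (12650.0 CPM, 29 cells) and Ngn3Cre (13600.0 CPM, 93 cells) were near each other, and no thinned HM cell was in that class. Before thinning 2 HM cells of 24 somites had 1000 CPM of Gcg or more, the higher at 1474 CPM in a cell of 25103 reads. For Slc7a2, a read was present in 9.32% of cells with no Gcg read, 14.3% below 100 CPM, 20.9% between 100 and 1000 CPM and 85.2% above (95% exact interval 77.7% to 91.0%), where the mean level was 210 CPM.

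Slc38a4 went the other way. A read was present in 51.7% of cells with no Gcg read (45.1% to 58.2%), 34.7% below 100 CPM, 30.9% between 100 and 1000 CPM and 13.9% above (8.33% to 21.4%). In HZ none of the 29 cells with Gcg above 1000 CPM had a Slc38a4 read, and the exact interval reaches 11.9%. Slc7a8 had a read in 19.9%, 15.1%, 17.3% and 10.7% of cells in the same order, with intervals that overlapped between neighbouring classes. These intervals cover counting error only, and cells of a pool are not independent replicates.

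**Figure D3:**
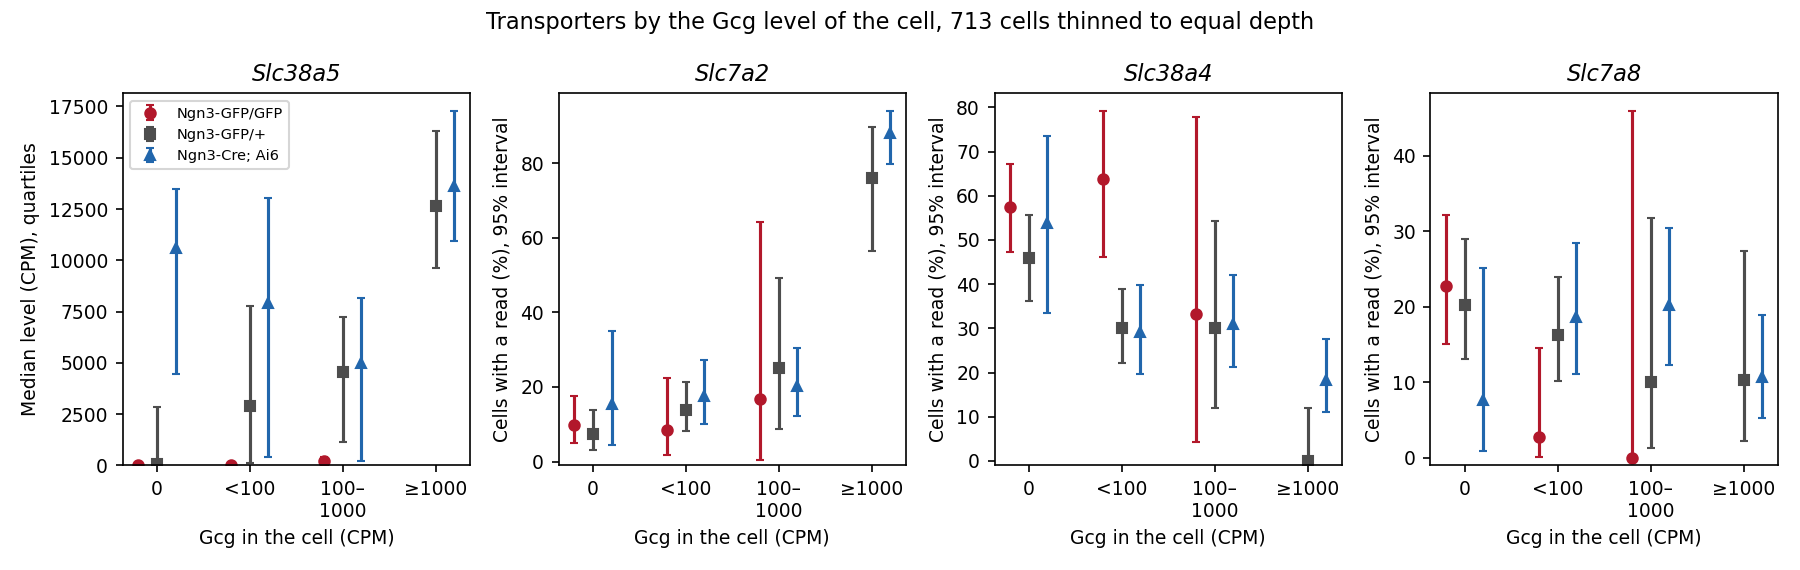
Transporters by the Gcg level of the cell (0, below 100, 100 to 1000 and at least 1000 CPM) in 713 cells thinned to equal depth, by genotype. Slc38a5 is given as the median CPM with quartiles, the others as the percentage of cells with a read and its 95% exact interval; Slc7a2 reaches 75.9% in HZ and 88.2% in Ngn3Cre in the highest class, where HM has no thinned cell.

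Within a pool, Spearman's rho between Slc38a5 and Gcg over thinned cells had a median of 0.46 over the 11 pools and was above 0 in 10 of them. Few cells with a Gcg read carry some of these values: 2 of 15 in HM at 18 somites (rho 0.46) and 4 of 36 in HM at 21 (0.21). Over the 11 pools the rho of Slc38a5 varied with pool. It was highest in HZ at 27 somites (0.63, 26 cells) and lowest in HM at 15 somites (-0.12, 15 cells). In Ngn3Cre at 21 somites it was 0.07 over 89 cells, although all of them had a Slc38a5 read and 70 had a Gcg read. For Slc7a2 the median was 0.43 over 9 pools, with 0.73 in HZ at 27 somites and 0.72 in Ngn3Cre at 24 somites (136 cells), and with -0.12 and -0.05 in HM at 21 and 24 somites, where 4 and 8 cells had a Slc7a2 read. The value of 0.46 in HM at 15 somites rests on 1 cell with a Slc7a2 read.

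Slc38a4 had a median rho of -0.17, down to -0.40 in HZ at 27 somites, and Slc7a8 one of -0.08, whose single value above 0 (0.17, HZ at 27 somites) rests on 1 cell with a read. The median rho of all genes with Gcg lay between -0.07 and 0.08 by pool. In HZ at 21 somites Slc38a5 ranked above 99.96% of 11311 genes in its rho with Gcg, and in Ngn3Cre at 24 somites Slc7a2 ranked above 99.98% of 11432 genes. These were the highest ranks over pools. The lowest were 36.9% for Slc38a5 (HM at 15 somites) and 16.0% for Slc7a2 (HM at 21 somites), and in Ngn3Cre at 21 somites Slc38a5 ranked above 79.3%. The points of a rho are cells of 1 pool that mix cell types, and no p is given.

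**Figure D4:**
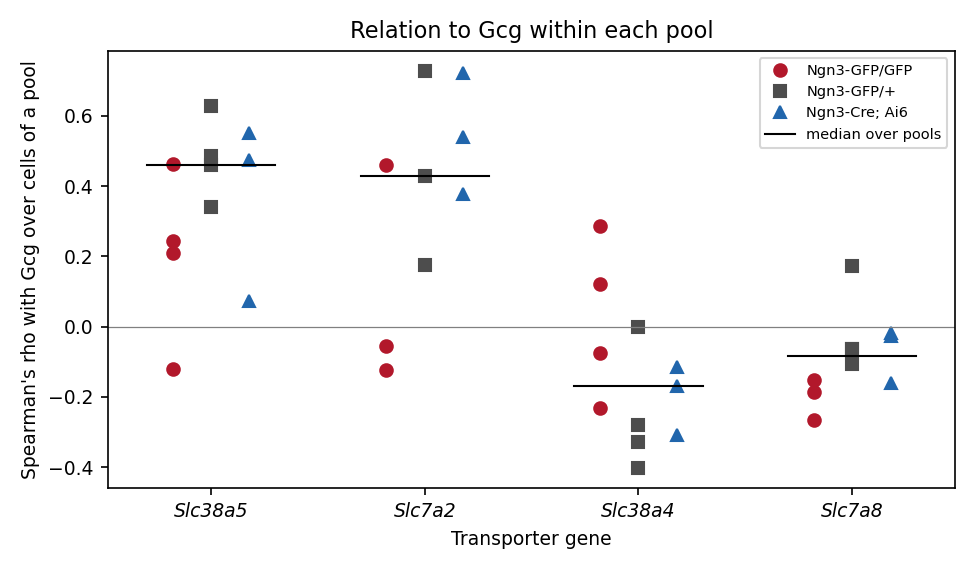
Spearman's rho of each transporter with Gcg over the thinned cells of a pool, 1 point per pool and genotype, with the median over pools as a line. Slc38a5 (median 0.46) lies above 0 in 10 of 11 pools and Slc7a2 (0.43) in 7 of 9, while Slc38a4 (-0.17) lies above 0 in 2 of 11 and Slc7a8 (-0.08) in 1 of 10; 1 point above 0 of Slc7a2 (HM at 15 somites) and that of Slc7a8 rest on 1 cell with a read each. In HM a Gcg read was present in 2 of 15 cells at 18 somites and 4 of 36 cells at 21.

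The genes with patterns most like each transporter were ranked in 2 ways, by Pearson's r of log2(CPM + 1) over the 11 pools and by mean within-pool rho over cells. For Slc38a5 the closest over pools were Pax6, a transcription factor of endocrine cells, Disp2, Pcsk1 (a prohormone convertase), Gng4 and Pex5l, with r of 0.99 each. Over cells they were Nap1l5 (0.58), Hepacam2 (0.57), Mamld1 (0.57), Abcc8 (0.56), a subunit of the ATP-sensitive potassium channel, and Disp2 (0.56). Gcg ranked 127 of 11473 genes over cells (0.35), behind Ghrl at rank 26 (0.47), and ahead of Ttr (0.18) and Neurog3 (0.15).

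For Slc7a2 the closest over pools were Zcchc18 (0.96), Asns (asparagine synthetase, 0.95), Tsnax, Scgn (secretagogin) and 2210013O21Rik (0.94 each). Over cells they were Pcsk2, the convertase that releases glucagon from its precursor (0.60), the carrier relative Slc7a14 (0.53), Nap1l5 (0.51), Mamld1 (0.49) and Sphkap (0.44). Gcg followed at rank 21 of 11192 (0.36). For Slc38a4 the closest were Rgma, Adamts1, Fzd7, Vdac3 and Hddc2 over pools (r 0.94 to 0.95) and Upk1a, P4ha3, Edil3, Col5a2 and 2610528A11Rik over cells (0.34 to 0.37).

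For Slc7a8 they were Sh3tc1, Dusp12, Tdrp, Eci1 and Tnks1bp1 over pools (0.88 to 0.95) and Aass (a lysine-degrading enzyme), Gm28040, Folr1, Hnf4a (a hepatocyte nuclear factor) and Fam198b over cells (0.30 to 0.32). With 11 pools that differ in genotype and cell mix, many genes reach a high r over pools, and the likeness is a ranking only.

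Among other amino acid carriers a single gene passed the test. These carriers and the gene lists below were chosen with earlier results of these data known. Of 50 listed carrier genes other than the 4 described, 45 were tested between HM and HZ by edgeR's quasi-likelihood test with Benjamini-Hochberg adjustment over 18420 genes. Slc7a14, a relative of the cationic carriers, was the only gene of these that fell, and none rose, beside 1.38% of all tested genes that fell and 0.0923% that rose. In a list of this size, 1 call is near that share, so the count is no result about carriers as a group. Means from here on cover 15 to 24 somites in HM, 18 to 27 in HZ and 21 to 27 in Ngn3Cre, so they are not matched for stage. On the TMM-scaled CPM used for all genes from here on, the HM mean of Slc7a14 was 0.259 ± 0.196 (SD, n = 4 pools) against an HZ mean of 27.8 ± 24.8 (SD, n = 4 pools). The fitted log2 fold change of Slc7a14 was -6.67 ± 0.57 (SE; edgeR adjusted p = 0.000584). Its HM pools ranged from 0 to 0.424 CPM and its HZ pools from 0.737 to 51.5 CPM, so the pools did not overlap. It did not pass in cells below 100 CPM of Gcg with edgeR (log2 difference -5.62, adjusted p = 0.0591), with limma on mean log2 CPM of cells (-1.42, adjusted p = 0.150) or with limma on log2 mean TPM (-2.09, adjusted p = 0.157).

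The other carriers gave a median log2 difference of -0.42 over the 45 tested, beside -0.09 over all tested genes. Slc38a2, the amino-acid-regulated relative of Slc38a5, had 233 ± 53.7 CPM in HM and 142 ± 16.5 CPM in HZ (SD, n = 4 pools each; edgeR adjusted p = 0.122), and Slc38a1 had 107 ± 28.5 and 87.0 ± 16.0 CPM (adjusted p = 0.621). Among other families, Slc6a6 (the taurine carrier) and Slc43a2 had adjusted p of 0.990 and 0.308. DESeq2 called 3 of the carriers lower (Slc7a14, Slc7a1 and Slc7a5) and 3 higher (Slc38a2, Slc38a3 and Slc7a9) in HM.

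Between Ngn3Cre and HZ none of the 45 carriers passed in edgeR, and 6 had an unadjusted p under 0.05, as did 1938 of all 18420 genes, while 0.331% of all genes fell and 0.00543% rose. DESeq2 called 4 lower (Slc38a1, Slc6a18, Slc7a7 and Slc7a9). The estimate for Slc6a18 was unstable, with a log2 difference of -15.7 ± 4.09 (SE) in DESeq2 and -1.23 ± 2.01 in edgeR. The heavy chain Slc3a2, partner of Slc7a8, had 136 ± 51.0 CPM in Ngn3Cre (SD, n = 3 pools), 116 ± 17.8 CPM in HZ (SD, n = 4 pools; edgeR adjusted p = 0.799) and 90.9 ± 25.5 CPM in HM (SD, n = 4 pools). Slc7a5, which pairs with the same chain, had an adjusted p of 0.946. No gene passed for the slope over stages (0.0% of 16478 genes in either direction), 2 of 42 tested carriers and 1377 of all genes had an unadjusted p under 0.05, and DESeq2 called Slc1a2 higher with stage.

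Genes that use or sense the carried amino acids did not pass either. Tested were 14 arginine and polyamine genes, 9 glutamine and glutamate genes, 16 amino acid response genes and 18 genes of amino acid sensing by mTORC1. None passed between HM and HZ in edgeR, beside 1.38% of all tested genes that fell and 0.0923% that rose. In lists of this size, no call is near that share. At an unadjusted edgeR p under 0.05 were 5, 1, 5 and 2 of them, beside 2469 of all 18420 genes. Glul (glutamine synthetase) had 152 ± 32.3 CPM in HM and 287 ± 74.7 CPM in HZ (SD, n = 4 pools each; edgeR adjusted p = 0.0807), and 567 ± 172 CPM in Ngn3Cre (SD, n = 3 pools). Sms (spermine synthase) had 144 ± 20.8 CPM in HM and 239 ± 29.5 CPM in HZ (edgeR adjusted p = 0.134), and Arg1 had 397 ± 98.6 and 451 ± 75.8 CPM (edgeR adjusted p = 0.454). Glud1 (glutamate dehydrogenase), Atf4 (the factor of the amino acid response), Phgdh (serine synthesis), Rraga and Lamtor2 (mTORC1 sensing) had adjusted p between 0.105 and 0.891.

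Most of the 10 listed genes of glucagon cells were lower in HM. Of the 10, 6 fell and none rose between HM and HZ in edgeR (1.38% of all tested genes fell and 0.0923% rose). Among those that fell were Pou3f4 (log2 fold change -8.55 ± 0.52, edgeR adjusted p = 0.000117), Pcsk2 (-7.79 ± 0.87), Irx1 and Irx2. The fitted difference was negative for 8 of the 10. Ttr, also listed, had the higher mean in HM, at 3016 ± 3324 CPM beside 2272 ± 2248 CPM in HZ (SD, n = 4 pools each), a distance within the SD. Over the 10 the median log2 difference was -3.62. This list was chosen with earlier results of these data known, so its calls are a description and no independent support. Gcg itself had 8.31 ± 9.72 CPM in HM and 3047 ± 4735 CPM in HZ (SD, n = 4 pools each) and did not pass (edgeR adjusted p = 0.0895). Its HZ pools ran from 4.46 to 10018 CPM. The HM pools covered 15 to 24 somites and the HZ pools 18 to 27, so these means are not matched for stage. Between Ngn3Cre and HZ none of the 10 passed and 5 had an unadjusted p under 0.05 (1938 of all 18420 genes did), with Pcsk2 at 382 ± 161 and 153 ± 179 CPM (edgeR adjusted p = 0.304) and Ttr at 1157 ± 411 and 2272 ± 2248 CPM (edgeR adjusted p = 0.988).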

How the data were processed

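Each sample is 1 cell, and all 830 were analysed. The authors deposited whole-number counts per gene and cell, not scaled, and TPM values of the same cells. HISAT2 2.1.0, Trimmomatic 0.39 and FastQC 0.11.9 appear in the submitters' processing notes, as do mm10 and GRCm38. How reads were counted, with which annotation, and whether cells were filtered is not stated in those notes. The transporters and gene lists were chosen with earlier results of these data known.

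Counts were summed by genotype and stage, and 11 pools of at least 10 cells were fitted with edgeR 4.0.16 (R 4.3.3; TMM, filterByExpr with the design, quasi-likelihood test, Benjamini-Hochberg at 0.05), with genotype and stage as factors or with a slope per somite. Each genotype and stage gave 1 pool, so no pool has a replicate. P-values measure how far pools depart from the fitted genotype and stage terms. The fits left 4 residual degrees of freedom with stage as a factor and 7 with the slope. This departure may be technical, or a genotype difference that changes with stage. The fit was also run on simulated data, with an outcome that is not given here. Alternatives were RLE scaling, no filter, DESeq2 1.42.0, limma 3.58.1, other cell filters and each pool left out. Named genes were the 4 transporters, up to 4 genes per list past the threshold with the smallest p (else the 2 most abundant), landmark genes and the 5 closest genes by each likeness, of which a few are not reported here. Clusters used scanpy 1.11.5 (2000 variable genes without the transporters, 30 components, 15 neighbours, Leiden resolution 1), with a name given from at least 3 markers in 25% of cells at 2-fold. No doublet caller was run.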

Additional observations from a re-analysis of the deposited data

How the results depend on the processing

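No paired analysis was possible because the labels identify no embryo, litter or batch. The last number of a label only names a cell, and the tag b2, which the labels share, is not explained. The count of carrier genes lower in HM than in HZ was 1, and it was 3 with DESeq2, 0 with limma on mean log2 CPM of cells, 0 with limma on log2 mean TPM and 0 in cells below 100 CPM of Gcg. With 1 pool left out it ranged from 1 to 2, the latter without the HM pool of 21 somites, where Slc43a2 was added. DESeq2 called 3 carriers higher in HM, 4 lower in Ngn3Cre and 1 higher with stage, where edgeR called 0. The cause was not tested. The fitted HM difference of Slc38a5 stayed between -6.45 and -4.81 over 20 alternatives, that of Slc38a4 between 0.64 and 1.21, that of Slc7a2 between -3.71 and -0.59, and that of Slc7a8 between -0.25 and 1.82. With Gcg split at 50 CPM the median rho of Slc38a5 was 0.19, and the other alternatives gave 0.33 to 0.48. At a Leiden resolution of 0.5 the cluster richest in Gcg again had 104 cells and the same levels as at 1, so it gives no separate check. At a resolution of 2 it had 65 cells, and the levels moved by less than the SD over pools. Over all genes edgeR called 254 lower and 17 higher in HM, DESeq2 1072 and 314, limma on mean log2 CPM 61 lower and 110 higher, limma on log2 mean TPM 11 higher, all 14 pools 37 and 0, and cells below 100 CPM of Gcg 81 and 1. With 1 pool left out these counts ranged from 88 (without HZ at 21 somites) to 294 and from 0 to 31. For Ngn3Cre the counts were 61 lower and 1 higher in edgeR, 704 and 216 with DESeq2, 99 and 6 with no filter, 0 and 0 with limma on either scale, 2 and 0 with all 14 pools, and 0 to 103 and 0 to 11 with 1 pool left out. For the slope they were 0 and 0, 138 and 167 with DESeq2, 33 and 43 with all 14 pools, and up to 2 higher with 1 pool left out. Few reads limit Slc7a2 and Slc7a8 in single pools.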
